A study of Mus musculus with 18 samples.

Results

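The genes described here are Myc, Mycn, Max, Mxd1, Mxd3, Mxd4, Mxi1, Mnt, Mlx and Mga, which together make up most of the Myc and Max network of transcription factors. The members were taken by gene name from tables of allelic read counts, by a list drawn up with earlier results of these data known. All 10 had a row among the 39147 genes of the Cast tables and 9 among the 40327 genes of the 129 tables; Mnt was read from the Cast tables only. The samples were CD23+ B cells from the spleens of female F1 129S1/Cast mice carrying the genotype Xist+/-, a cross in which the inactive X is always the Cast one according to the labels. All 10 genes lie on autosomes. The naive group (3 samples) was collected without treatment. The stimulated group (3 samples) was held in culture with 1 µM CpG, a DNA oligonucleotide sensed by a Toll-like receptor of B cells, for 24 h, so culture and CpG cannot be told apart here. The series lists 18 samples, and the other 12 are not analysed here. No label says that the 3 samples of a group came from different animals, so p-values measure the spread between these samples, which may be technical.

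Myc is a basic helix-loop-helix leucine zipper protein that binds DNA only as a dimer with Max, chiefly at the E-box CACGTG, and activates genes of ribosome production, metabolism and cell growth. The Mxd proteins, Mnt and Mga also pair with Max and bind the same letters, but Mxd proteins and Mnt recruit the Sin3 histone deacetylase complex and Mga belongs to a variant Polycomb complex, so they oppose Myc. Mlx is the Max-like partner that links some of these proteins to the glucose-sensing factors Mlxip and Mlxipl. In lymphocytes Myc is known as a gene that is induced early after activation and drives growth before division.

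In the main fit, with no block by replicate number, 6 members passed the test for a change with stimulation on at least 1 allele. Max, Mlx and Mxd3 rose, and Mxd1, Mxd4 and Mnt fell. Mxd3 was in the test through its stimulated libraries alone. The promoter windows of these 6 members are printed because 4 of them hold the network's own E-box. Each is the RefSeq window of 300 bases in GRCm38.p6, from 250 bases before to 50 after the annotated start, read 5′ to 3′ on the strand of the gene. The windows lie at chr12:76962199-76962498 on the minus strand for Max, chr11:101087040-101087339 on the plus strand for Mlx, chr13:55329682-55329981 on the minus strand for Mxd3, chr5:34187661-34187960 on the minus strand for Mxd4, chr11:74830674-74830973 on the plus strand for Mnt and chr6:86669110-86669409 on the minus strand for Mxd1. Capitals mark CACGTG, whose reverse complement is itself, or TTCCCGC, letters of an E2F site, on either strand (GCGGGAA in the Mxd3 window). The 2 motifs do not overlap in these windows.
Max: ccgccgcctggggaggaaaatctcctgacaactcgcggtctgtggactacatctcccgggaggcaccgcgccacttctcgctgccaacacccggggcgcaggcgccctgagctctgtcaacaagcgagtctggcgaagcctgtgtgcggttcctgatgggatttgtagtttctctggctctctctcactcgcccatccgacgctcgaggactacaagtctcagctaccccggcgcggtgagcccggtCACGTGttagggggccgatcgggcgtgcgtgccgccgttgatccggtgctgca
Mlx: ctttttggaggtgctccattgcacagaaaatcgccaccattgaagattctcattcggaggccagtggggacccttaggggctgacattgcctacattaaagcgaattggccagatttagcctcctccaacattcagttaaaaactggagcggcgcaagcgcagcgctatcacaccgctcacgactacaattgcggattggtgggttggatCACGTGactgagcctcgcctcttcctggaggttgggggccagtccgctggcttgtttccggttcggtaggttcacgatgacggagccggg
Mxd4: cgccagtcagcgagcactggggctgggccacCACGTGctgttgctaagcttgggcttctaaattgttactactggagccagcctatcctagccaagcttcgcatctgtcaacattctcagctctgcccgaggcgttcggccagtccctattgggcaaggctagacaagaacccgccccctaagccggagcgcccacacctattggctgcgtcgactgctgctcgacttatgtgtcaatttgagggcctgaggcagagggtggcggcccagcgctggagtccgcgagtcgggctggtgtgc
Mnt: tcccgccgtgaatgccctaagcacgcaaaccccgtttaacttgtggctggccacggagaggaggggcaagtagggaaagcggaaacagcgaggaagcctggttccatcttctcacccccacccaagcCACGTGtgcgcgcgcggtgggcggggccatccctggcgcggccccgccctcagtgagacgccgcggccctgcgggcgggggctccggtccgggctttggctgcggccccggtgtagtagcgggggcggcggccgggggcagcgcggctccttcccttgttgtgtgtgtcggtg
Mxd3: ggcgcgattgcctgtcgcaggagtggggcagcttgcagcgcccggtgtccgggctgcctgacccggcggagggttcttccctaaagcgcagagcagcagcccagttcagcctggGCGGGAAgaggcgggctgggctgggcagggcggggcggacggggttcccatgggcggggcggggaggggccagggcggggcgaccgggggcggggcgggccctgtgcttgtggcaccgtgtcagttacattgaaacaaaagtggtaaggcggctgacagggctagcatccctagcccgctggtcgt
Mxd1: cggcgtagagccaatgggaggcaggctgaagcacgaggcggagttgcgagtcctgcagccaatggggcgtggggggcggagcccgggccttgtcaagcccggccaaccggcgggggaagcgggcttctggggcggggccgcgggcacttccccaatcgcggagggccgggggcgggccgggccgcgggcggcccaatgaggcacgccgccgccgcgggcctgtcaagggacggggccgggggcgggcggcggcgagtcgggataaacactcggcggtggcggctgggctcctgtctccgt

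Of the 9 members with an entry in the RefSeq table, 4 (Max, Mlx, Mxd4 and Mnt) had CACGTG in a window of this length, against 7.15% of all 32851 windows in the table. Members are counted as genes, with a match in any of their windows, while the shares of all windows are per window. The units are thus unlike. The E-box began 3 bases before the start of Max, 40 before that of Mlx, 123 before that of Mnt and 219 before that of Mxd4. Of these 4 genes, Max and Mlx rose and Mxd4 and Mnt fell, so the letters were found with either direction of change. TTCCCGC was in the window of Mxd3 alone among the members with an entry, and in 4.60% of all windows. Myc was the member with no entry, so its promoter was not searched for either motif. The windows are from the reference assembly, not from the 129 or Cast genomes, and a match is no evidence of binding.

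Gene reads per sample ran from 1987266 to 2928236 in the 129 tables and from 2465073 to 3321753 in the Cast tables. The autosomal Cast share was 51.9% to 53.5% in naive and 52.0% to 53.6% in stimulated samples. The B cell label was checked on 7 markers, whose summed level was 6617 to 8527 CPM (reads per 1000000 gene reads, alleles summed) in naive and 2325 to 2830 CPM in stimulated samples; all 7 fell, Fcer2a, which encodes CD23, among them. The 16 macrophage markers summed to 3359 to 6828 CPM in naive samples and to 22.7 to 31.0 CPM in stimulated samples, and all 15 that were tested fell, with Fcna at 0 in every stimulated sample. Markers of erythroid cells (81.0 to 173 CPM naive, 1.18 to 2.91 stimulated), T cells (30.3 to 47.5 and 0.324 to 0.480) and neutrophils (3.94 to 17.3 and 0.337 to 0.648, 4 of 6 markers matched) had lower sums after stimulation as well. The T cell sum was mostly Cd4, with 450 naive reads, while each other T cell marker had at most 44. Cd3g went from 11 reads to 0, and 2 of the 6 T cell markers were tested. No neutrophil marker was tested, and Elane went from 3 naive to 6 stimulated reads. In bulk samples, fewer cells of a type and less RNA per cell cannot be told apart.

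With no block by replicate number, 4 antagonists passed the test for a change after CpG on at least 1 allele and Myc on neither. Of these antagonists, Mxd1, Mxd4 and Mnt fell and Mxd3 rose. Mxd3 had at most 5 reads in a naive library and was in the test through its stimulated libraries alone. With that block Myc passed on the Cast allele (edgeR adjusted p = 0.0448) and Mlx passed on the 129 allele (0.0404). The counts that follow are of the fit without the block. In the 129 tables, 7 of the 9 members with a row passed the filter on low counts and 4 of the 7 were called, meaning an adjusted p under 0.05 in the quasi-likelihood test of edgeR, as were 55.2% of all tested genes. Max and Mxd3 were higher, as 28.2% of tested genes were, and Mxd1 and Mxd4 lower, as 27.0% were. In the Cast tables, 8 of 10 passed the filter and 6 were called, against 62.2% of all tested genes; Max, Mxd3 and Mlx were higher (30.7% of tested genes) and Mxd1, Mxd4 and Mnt lower (31.5%). With the reads of both alleles summed, 5 of 7 were called, against 68.7% of all tested genes, of which 3 were higher (34.2%) and 2 lower (34.4%). These shares are near the background of a stimulation that changed most tested genes, so the counts say little about the network by themselves.

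**Figure D1:**
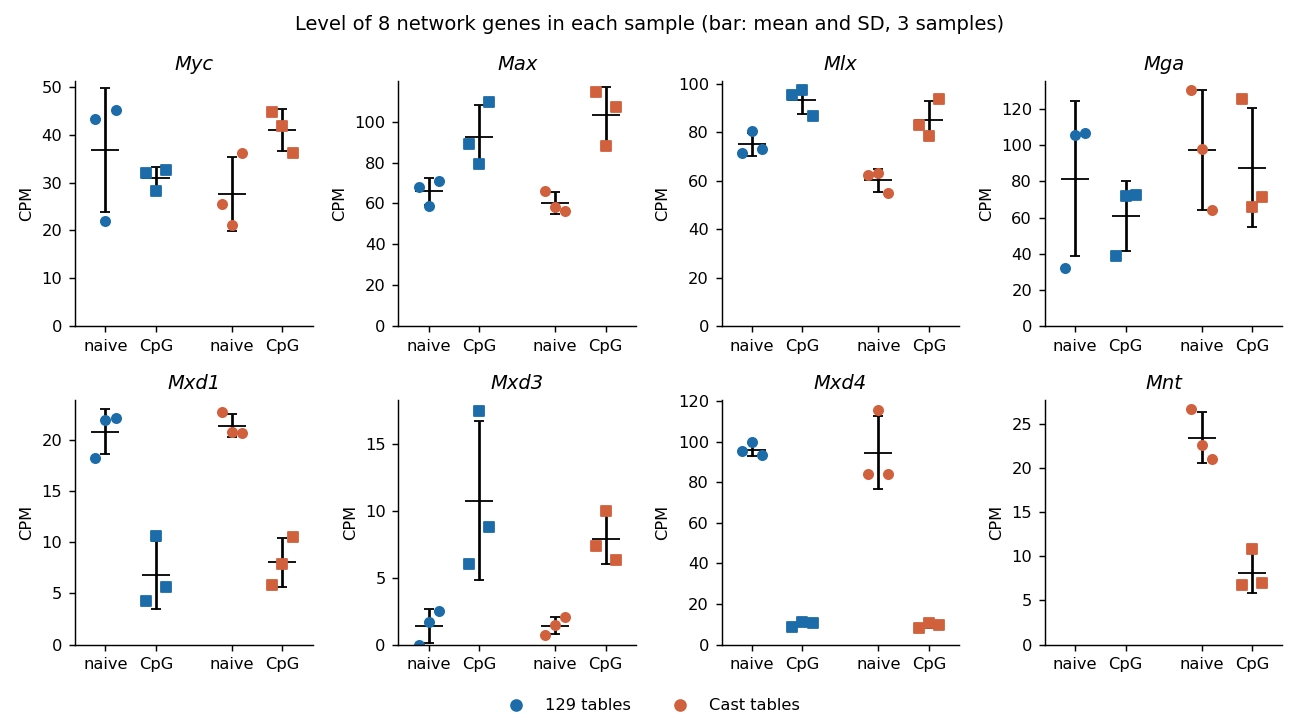
Level in CPM of 8 members in each naive (circles) and CpG-stimulated (squares) sample, 129 tables in blue and Cast tables in orange, with the mean and SD of 3 samples; points of a group are drawn from left to right by replicate number. Mxd4 fell from at least 84.3 to at most 10.9 CPM on both alleles, Mxd3 rose from at most 2.52 to at least 6.05 CPM, and the Myc groups overlapped on the 129 allele only.

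Myc itself was read on both alleles at moderate depth. In the 129 tables the naive samples held 102, 52 and 90 reads of Myc (chromosome 15, MGP_129S1SvImJ_G0021890) and the stimulated samples 90, 83 and 93. In CPM these were 43.2, 21.9 and 45.3 before and 32.0, 28.3 and 32.6 after CpG. The stimulated samples lay inside the naive range, so the groups overlapped, and naive replicate 2 was the lowest of all 6. The means were 36.8 ± 13.0 and 31.0 ± 2.29 CPM (SD, n = 3), a log2 change of -0.23 (SE 0.29, adjusted p = 0.531 by edgeR). Single naive samples moved this value to -0.50 (without replicate 2, adjusted p = 0.0592), -0.08 (without replicate 1) and -0.06 (without replicate 3).

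In the Cast tables Myc had 69, 57 and 89 reads in naive and 140, 139 and 120 in stimulated samples, or 25.6, 21.1 and 36.1 against 44.9, 41.8 and 36.1 CPM. The groups did not overlap, by a narrow margin: the highest naive and the lowest stimulated sample, both numbered 3, were almost level. The means were 27.6 ± 7.69 and 41.0 ± 4.44 CPM (SD, n = 3), a log2 change of 0.54 (SE 0.24, adjusted p = 0.0725 by edgeR). The Cast change missed the threshold in this fit. It passed with the replicate number as a block (log2 fold change 0.56, edgeR adjusted p = 0.0448), with library size as the only scaling (0.57, 0.0475), with no filter on low counts (0.61, 0.0202) and without naive replicate 3 (0.83, 0.0109), which had the highest naive level.

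With both alleles summed, Myc stood at 33.9, 21.5 and 40.2 CPM in naive and 38.8, 35.5 and 34.5 CPM in stimulated samples. The log2 fold change was 0.21 (SE 0.22, adjusted p = 0.403 by edgeR), and without naive replicate 2 it was -0.01. The macrophage marker sum of the naive samples was 6828, 3359 and 4109 CPM, so naive replicate 2 was lowest in Myc and in these markers; their part in the naive level of Myc was not tested. The paralogue Mycn, which takes the place of Myc in some embryonic tissues, had 0 reads in all 12 tables; 3 reads would have been 0.903 to 1.51 CPM in a single table. Mycl, the third Myc gene, was read from the 129 tables only and had 0 reads in all 6 samples.

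Max, the obligate partner of Myc and a partner of every antagonist, rose on both alleles. In the 129 tables it had 161, 139 and 141 reads in naive and 251, 232 and 313 in stimulated samples (68.3, 58.5 and 71.0 against 89.3, 79.2 and 110 CPM). Every stimulated sample was above every naive one, and the log2 fold change was 0.51 (SE 0.16, adjusted p = 0.0273 by edgeR). This call on the 129 allele was lost when any of 4 libraries was left out: naive replicate 1 (adjusted p = 0.0547), naive replicate 2 (0.0787), stimulated replicate 1 (0.0522) or stimulated replicate 3 (0.0990).

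In the Cast tables Max had 178, 157 and 139 reads in naive and 357, 293 and 356 in stimulated samples. The groups were again apart, at 60.2 ± 5.18 and 103 ± 13.6 CPM (SD, n = 3), a log2 change of 0.75 (SE 0.14, adjusted p = 0.00135 by edgeR). With the alleles summed the change was 0.67 (SE 0.12, adjusted p = 0.00084 by edgeR), 1.57-fold on the means.

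Mlx, the partner of Mlxip and of some Mxd proteins, rose by a smaller amount. Its levels were 71.6, 80.4 and 73.0 CPM in naive and 95.3, 97.7 and 86.9 CPM in stimulated samples of the 129 tables, and 62.4, 63.3 and 54.8 against 83.0, 78.6 and 93.7 CPM in the Cast tables. The groups did not overlap on either allele. The log2 fold change was 0.47 on the Cast allele (SE 0.13, adjusted p = 0.0103 by edgeR) and 0.34 on the 129 allele (SE 0.12, adjusted p = 0.0509), where it passed with the replicate block (adjusted p = 0.0404).

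Mxd4, a repressor that is typical of resting and differentiated cells, showed the largest fall of the members on both alleles. In the 129 tables it had 225, 237 and 186 reads in naive and 25, 32 and 31 in stimulated samples. In the Cast tables it had 227, 312 and 208 reads in naive and 26, 35 and 32 in stimulated samples. Each naive library held several times the reads of any stimulated library, although every stimulated library was deeper than every naive one of the same tables.

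The mean level of Mxd4 was 9.41-fold lower on the 129 allele, from 96.2 ± 3.17 to 10.2 ± 1.16 CPM, and 9.97-fold lower on the Cast allele, from 94.8 ± 18.0 to 9.50 ± 1.11 CPM (SD, n = 3). The log2 fold changes were -3.21 (SE 0.16, adjusted p = 1.53e-05 by edgeR) and -3.33 (SE 0.19, adjusted p = 1.47e-06). The macrophage marker sum also fell between the groups. Within the naive group, Mxd4 was highest (108 CPM, alleles summed) in replicate 2, where that sum was lowest (3359 CPM), and stood at 89.5 and 88.5 CPM in replicates 1 and 3, where it was 6828 and 4109 CPM. The part of these cells in the fall was not tested.

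Mxd1, the founding member of the Mxd family and a repressor that accompanies withdrawal from the cell cycle, fell as well. It had 43, 52 and 44 reads in naive and 12, 31 and 16 in stimulated samples of the 129 tables, and 61, 56 and 51 against 18, 26 and 35 in the Cast tables. The groups did not overlap on either allele, and stimulated replicate 2 was the highest of the stimulated group on the 129 allele but not on the Cast allele. The log2 fold change was -1.57 on the 129 allele (SE 0.38, adjusted p = 0.00944 by edgeR) and -1.43 on the Cast allele (SE 0.28, adjusted p = 0.00153). With the alleles summed, naive Mxd1 varied little (20.6, 21.3 and 21.3 CPM) while the macrophage marker sum varied from 3359 to 6828 CPM.

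Mnt, the broadly expressed repressor of the network, was read 72, 61 and 52 times in naive and 21, 36 and 23 times in stimulated samples of the Cast tables. All naive samples were higher. The level fell from 23.5 ± 2.92 to 8.17 ± 2.32 CPM (SD, n = 3), a log2 change of -1.54 (SE 0.28, adjusted p = 0.00102 by edgeR). The part of other cell types in the falls of Mxd1, Mxd4 and Mnt was not tested.

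Mxd3, the Mxd gene that is known for expression in dividing cells, went the other way. It had 0, 4 and 5 reads in naive and 17, 51 and 25 in stimulated samples of the 129 tables, and 2, 4 and 5 against 23, 33 and 21 in the Cast tables. The groups were apart on both alleles, but naive reads were few and the gene passed the filter on low counts through its stimulated libraries alone. The log2 fold change was 2.98 on the 129 allele (SE 0.80, adjusted p = 0.0157 by edgeR) and 2.43 on the Cast allele (SE 0.47, adjusted p = 0.0016). The call on the 129 allele was lost without naive replicate 2 (log2 fold change 3.16, adjusted p = 0.0511) or stimulated replicate 2 (2.40, 0.0625), and the value rose to 3.63 without naive replicate 3.

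Mxi1, the remaining Mxd gene, was near the limit of detection. It had 1, 0 and 5 reads in naive and 0, 1 and 2 in stimulated samples of the 129 tables, and 3, 8 and 5 against 3, 6 and 6 in the Cast tables. It was not tested, and no difference was detectable at this depth. Mxd3 overlaps Prelid1 on the other strand in GENCODE M21, Mlx overlaps Psmc3ip, and Max, Mxd1, Mxd4 and Mxi1 overlap predicted genes, so their reads are uncertain. The overlaps of Max and Mxd1 are on the same strand; the others would be settled only by counting that used strand. Myc, Mnt and Mga overlap no annotated gene.

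Mga, a very large protein with a T-box beside its Max-binding domain, did not pass the test. In the 129 tables it had 76, 251 and 212 reads in naive and 109, 211 and 207 in stimulated samples, with both samples numbered 1 lowest. In the Cast tables it had 351, 264 and 158 reads in naive and 391, 218 and 237 in stimulated samples, with both samples numbered 1 highest. With the alleles summed these opposite deviations largely cancelled, at 84.5, 101 and 83.1 CPM in naive and 84.3, 68.6 and 71.9 CPM in stimulated samples. The summed log2 fold change was -0.23 (SE 0.12, adjusted p = 0.110 by edgeR), and it passed only with upper quartile scaling (-0.40, adjusted p = 0.0152), which moved the median of all tested genes by -0.17.

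**Figure D2:**
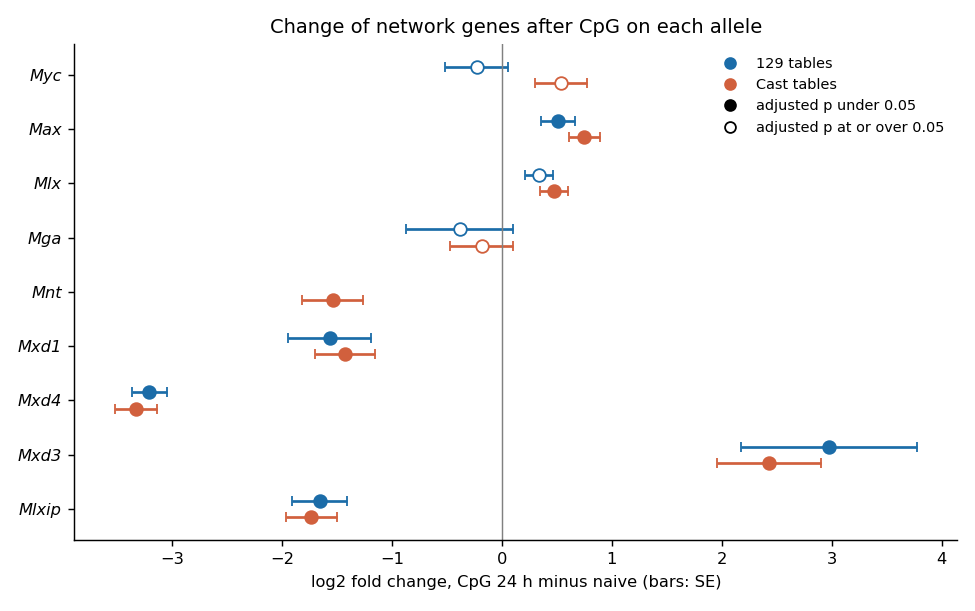
Log2 fold change (stimulated minus naive) with its SE from edgeR for the 8 tested members and Mlxip, 129 tables in blue and Cast tables in orange; filled points passed an adjusted p of 0.05. Mxd4, Mxd1, Mnt and Mlxip lie to the left of 0, Mxd3 far to the right and Max and Mlx slightly to the right, while Myc and Mga are open on both alleles. Mxd3 was in the test through its stimulated libraries alone.

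Levels were also set per kilobase of annotated exon, with lengths from GENCODE M21. Allelic reads can depend on the number of strain variants in a gene as well as on its length, and how reads were given to a strain is not given in the sources used here, so the order holds for allelic reads only. Mlx was the highest member on either allele in both groups. In naive samples of the 129 tables it stood at 37.5 ± 2.36 CPM per kb, followed by Max at 18.3 ± 1.82, Myc at 13.5 ± 4.77 and Mxd4 at 11.3 ± 0.374 (SD, n = 3). Max and Myc overlapped in their samples, as did Myc and Mxd4. Mga (5.31 ± 2.78) overlapped Mxd1 (2.93 ± 0.310), and Mxd3 (0.591 ± 0.541) overlapped Mxi1 (0.144 ± 0.197).

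In stimulated samples of the 129 tables the order was Mlx (46.7 ± 2.84 CPM per kb), Max (25.8 ± 4.30), Myc (11.4 ± 0.844), Mxd3 (4.53 ± 2.51), Mga (3.98 ± 1.26), Mxd4 (1.21 ± 0.136), Mxd1 (0.964 ± 0.471) and Mxi1 (0.0509 ± 0.0513). Mxd3 thus moved from below Mxd4 to above it, with no overlap of their samples in either group. Its samples overlapped those of Mga, and those of Mxd4 overlapped those of Mxd1. The Cast tables gave the same exchange: Mxd4 went from 11.2 ± 2.13 to 1.12 ± 0.130 CPM per kb and Mxd3 from 0.598 ± 0.272 to 3.33 ± 0.784. There Mnt went from 5.07 ± 0.632 to 1.76 ± 0.501, and Mxd4 ended level with Mxd1 (1.14 ± 0.338).

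The comparison of Myc with its antagonists was made within each sample, as log2 of Myc reads over antagonist reads with 1 read added to each, so that library size drops out. Against all 5 antagonists read in the 129 tables, the value was -1.75, -3.36 and -2.32 in naive and -0.85, -1.96 and -1.58 in stimulated samples. The groups overlapped, and the rise of the means was 1.01 (two-sided exact permutation p = 0.2, smallest possible 0.1). Mga gave 76 and 109 of the antagonist reads in 129 naive and stimulated replicate 1, against 207 to 251 in the other 129 samples. In the Cast tables Mga was highest in the samples numbered 1. Without Mga the 129 rise was 1.95 (exact permutation p = 0.1). Between same-numbered samples it rose by 0.90, 1.40 and 0.73, in 3 of 3 pairs (exact sign-flip p = 0.25, the smallest possible). With the mean of the antagonists' log2 values in place of their sum the rise was 0.41 (exact permutation p = 0.5). Leaving out naive replicate 2, the sample with the lowest Myc, brought the rise down to 0.57.

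Against all 6 antagonists read in the Cast tables, the value was -3.36, -3.61 and -2.42 in naive and -1.78, -1.34 and -1.55 in stimulated samples. Every stimulated sample was higher, and the rise of 1.57, or 2.97-fold on the ratio, gave the smallest p the design allows (two-sided exact permutation p = 0.1). With 3 samples a group this test cannot pass 0.05. With the 5 antagonists of the 129 tables, which leaves out Mnt, the Cast rise was 1.52.

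The antagonists did not contribute alike. Against Mxd4 alone, log2 of Myc reads over Mxd4 reads went from -1.13, -2.17 and -1.04 to 1.81, 1.35 and 1.55 in the 129 tables, and from -1.70, -2.43 and -1.22 to 2.39, 1.96 and 1.87 in the Cast tables. Mxd4 reads outnumbered Myc reads in each naive sample and Myc reads outnumbered Mxd4 reads in each stimulated sample, on both alleles. These ratios are of reads, and Mxd4 has the longer annotated exons. The rise was 3.02 and 3.86 (two-sided exact permutation p = 0.1 for each, the smallest possible).

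Against Mxd1 the ratio rose by 1.47 on the 129 and 2.01 on the Cast allele, and against Mnt by 2.11 on the Cast allele, each with no overlap of the groups (exact permutation p = 0.1). Against Mxd3 the ratio was lower in every stimulated sample on both alleles; naive Mxd3 had at most 5 reads in a library, and 0 in 129 naive replicate 1, so the size of that change depends on the added read and is not given. Against Mga, the antagonist with the most reads in most samples, it rose by 0.10 and 0.75 and the groups overlapped (exact permutation p = 0.9 and 0.3). Without Mxd4 the rise against the remaining antagonists was 0.16 on the 129 and 0.95 on the Cast allele (exact permutation p = 0.9 and 0.2), and without Mga it was 1.95 and 2.61 (exact permutation p = 0.1 for each).

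**Figure D3:**
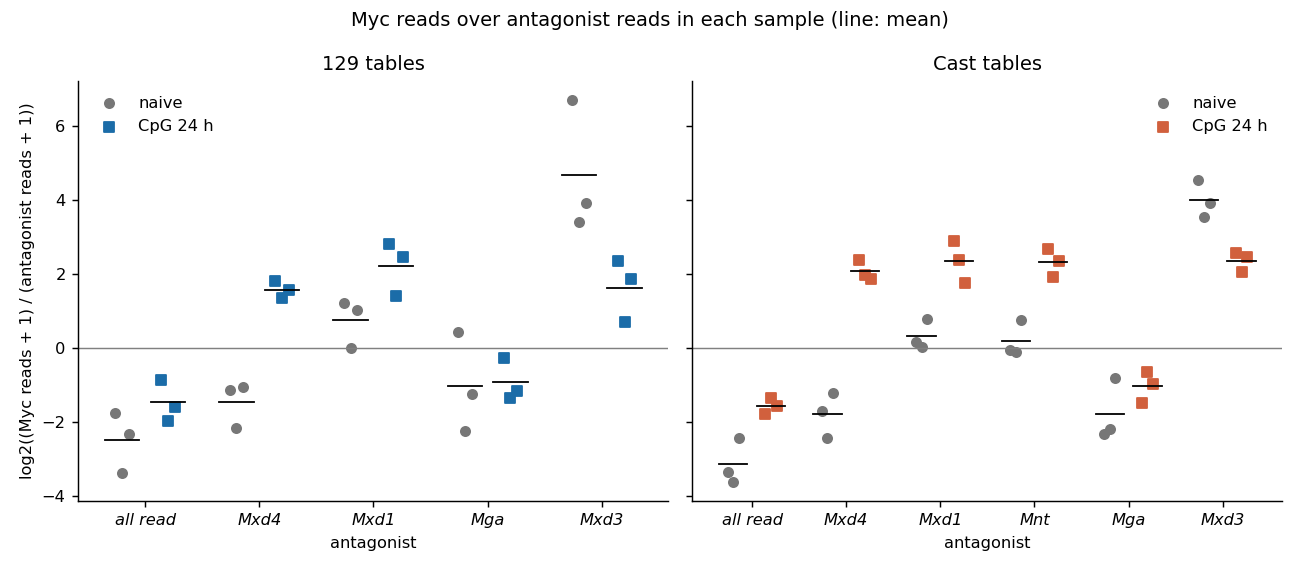
Log2 of Myc reads over antagonist reads (1 read added to each) in every naive (grey circles) and stimulated (coloured squares) sample, with the group mean as a line, for all antagonists read in a table and for single antagonists (Mnt in the Cast tables only). The Mxd4 columns cross from below to above 0 on both alleles, the Mxd3 columns go down, and the Mga columns overlap.

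The Cast share of allelic reads showed whether the alleles of a member responded alike. For Myc it was 40.4%, 52.3% and 49.7% in naive samples (Wilson 95% intervals 33.3 to 47.8, 43.0 to 61.4 and 42.5 to 57.0). In stimulated samples it was 60.9%, 62.6% and 56.3% (54.4 to 66.9, 56.1 to 68.7 and 49.6 to 62.8). Only counting error enters these intervals, and reads that carry no molecular identifier are not independent molecules. Every stimulated sample had the higher share, and the means were 47.5% ± 6.29 and 59.9% ± 3.24 (SD, n = 3; two-sided exact permutation p = 0.1, the smallest possible).

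In the edgeR fit over 10051 genes, the Cast to 129 ratio of Myc changed by a log2 of 0.74 (SE 0.25, adjusted p = 0.303 by edgeR), so the difference between the alleles' responses did not pass. The block by replicate number within allele brought the adjusted p to 0.0549. Without both samples numbered 1 the change was 0.50 (edgeR adjusted p = 0.717). No member passed this test, where 0.945% of all tested genes did, and Myc was the only member of the 7 tested with an unadjusted p under 0.05.

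**Figure D4:**
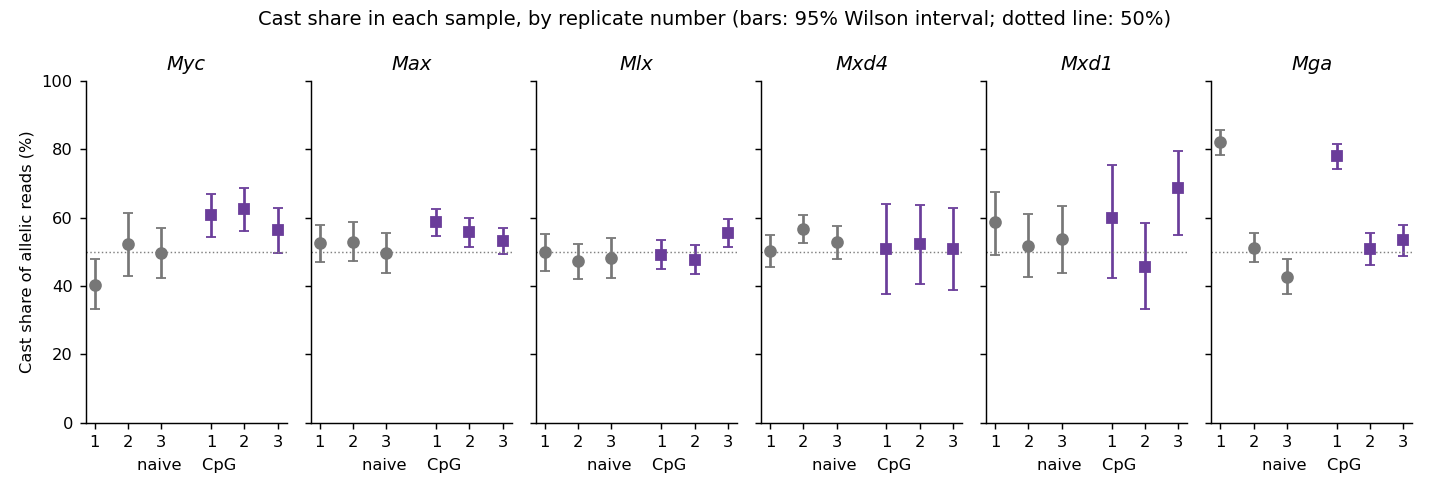
Cast share of allelic reads (percent) of 6 members in each naive (grey circles) and stimulated (purple squares) sample, by replicate number, with Wilson 95% intervals and a dotted line at 50%. The Myc shares of the stimulated samples are all above those of the naive samples, and the Mga shares of the samples numbered 1 stand at 82.2% and 78.2% where the others lie between 42.7% and 53.4%.

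The allele ratio within a group was tested for 7 members. A ratio that did not pass is not shown to be even, as the SE of log2 in naive cells reached 0.69 (Mxd3). No member passed the edgeR test of the allele ratio in naive cells, where 27.5% of all tested genes did. In stimulated cells 2 of 7 passed, against 27.4% of all tested genes. These were Myc (log2 of Cast over 129 of 0.58, SE 0.18, edgeR adjusted p = 0.0475) and Max (0.34, SE 0.10, adjusted p = 0.0442). With an own library size for each strain table, which takes out the slight excess of Cast reads over all genes, neither passed (Myc 0.49, adjusted p = 0.0812; Max 0.25, adjusted p = 0.134). Myc also lost its call without any library but naive replicate 1 (adjusted p from 0.0576 to 0.20), and Max lost its call without any of the 6 (from 0.0579 to 0.214). With the replicate block both passed (adjusted p = 0.00253 and 0.0057), and Mga did too. The block takes differences between replicate numbers out of the error, so these p-values do not measure the spread between samples.

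Max had Cast shares of 52.5%, 53.0% and 49.6% in naive and 58.7%, 55.8% and 53.2% in stimulated samples. The groups did not overlap, though naive replicate 2 and stimulated replicate 3 were almost level (exact permutation p = 0.1). The ratio change of Max was 0.24 (SE 0.15, adjusted p = 0.638 by edgeR). Mlx lay between 47.2% and 55.6% in all samples, Mxd4 between 50.2% and 56.8% and Mxd1, with fewer reads, between 45.6% and 68.6%. The fall of Mxd4 was thus of like size on both alleles, with a ratio change of -0.11 (SE 0.19, adjusted p = 0.966 by edgeR).

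Mga was read unevenly in the samples numbered 1. Its Cast share was 82.2% (Wilson 95% interval 78.3 to 85.5) in naive replicate 1 and 78.2% (74.4 to 81.6) in stimulated replicate 1, against 51.3% and 42.7% in naive replicates 2 and 3 and 50.8% and 53.4% in stimulated replicates 2 and 3. Over all samples the log2 of Cast over 129 was 0.57 in naive and 0.68 in stimulated cells (SE 0.65 and 0.63, edgeR adjusted p = 0.577 and 0.494). With the replicate block, which takes differences between numbers out of the error, the same ratios passed (0.61, adjusted p = 2.26e-05, and 0.70, adjusted p = 6.69e-07). Without both samples numbered 1 they were -0.17 and 0.12 (adjusted p = 0.529 and 0.657).

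Genes beside Mga on chromosome 2 showed a like split. Of the 5 nearest genes on either side with at least 30 summed reads in every sample, 7 of 10 had higher Cast shares in both samples numbered 1 than in all 4 others, and 4 had them by at least 20 percentage points. Ganc stood at 88.7% and 91.2% in the samples numbered 1 and at 46.0% to 54.3% in the others, and Rtf1 at 80.9% and 80.3% against 23.6% to 40.4%. Over 7264 autosomal genes, a Cast share set apart by at least 20 points in both samples of a number was found in 207 genes for number 1 (85 higher, 122 lower), 86 for number 2 and 195 for number 3. Mga was the only member among these genes. The cause was not tested.

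Beyond the 10 members, the glucose-sensing partner of Mlx, Mlxip, fell on both alleles. It had 455, 294 and 501 reads in naive and 161, 172 and 176 in stimulated samples of the 129 tables, and 552, 318 and 496 against 149, 184 and 193 in the Cast tables. No stimulated sample reached the lowest naive one. Mlxip overlaps Gm42907, Gm42908 and Gm43813 on the same strand and Gm15747 on the other in GENCODE M21, so its reads are uncertain. The log2 fold changes were -1.66 (SE 0.25, adjusted p = 0.00116 by edgeR) and -1.73 (SE 0.23, adjusted p = 0.000178). Among the naive samples, Mlxip was lowest in replicate 2 (121 CPM, alleles summed, against 199 and 224), where the macrophage markers were also lowest; their part in the fall was not tested. Mlxipl, the other glucose-sensing factor, had at most 3 reads in any table.

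Both listed targets of the Mlx partners fell in the Cast tables and with the alleles summed, beside 31.5% and 34.4% of all tested genes. Txnip, an inhibitor of glucose uptake, stood at 56.6, 36.6 and 60.2 CPM in naive and 3.20, 8.16 and 4.05 CPM in stimulated samples with the alleles summed. Naive replicate 2 was lowest, as it was in the macrophage marker sum (3359 CPM, against 6828 and 4109 CPM), whose part in the fall was not tested. The groups were far apart, with a log2 change of -3.27 (SE 0.35, adjusted p = 5.37e-05 by edgeR). Its relative Arrdc4 was called lower in the Cast tables and with the alleles summed and was not tested in the 129 tables. Stimulated Arrdc4 stood at 0.337, 0 and 0 CPM with the alleles summed, so its place in the test rests on its naive libraries.

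Genes that Myc is known to activate rose almost throughout. Of 25 listed, 22 of 23 tested were higher in the 129 tables, 24 of 24 in the Cast tables and 23 of 23 with the alleles summed, beside 28.2%, 30.7% and 34.2% of all tested genes. The list, like the others, was drawn up with earlier results of these data known. The median log2 fold change of those tested was 2.21, 2.31 and 2.32, against -0.01, -0.04 and -0.01 over all tested genes. Apex1, a DNA repair enzyme, was the gene not called in the 129 tables (2.37, edgeR adjusted p = 0.183).

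The largest of these rises were those of Srm, Pa2g4 and Shmt2. Srm, which makes the polyamine spermidine, went from 9.70, 9.06 and 8.09 CPM in naive to 98.5, 77.0 and 106 CPM in stimulated samples, a log2 change of 3.41 (SE 0.16, adjusted p = 2.49e-07 by edgeR). Pa2g4, a factor of ribosome assembly, went from 68.7 ± 1.21 to 513 ± 48.7 CPM, and Shmt2, a mitochondrial enzyme of one-carbon metabolism, from 50.5 ± 1.97 to 359 ± 57.4 CPM (SD, n = 3). All 3 were higher in every stimulated sample. The change of Myc RNA at 24 h missed the threshold on either allele in the fit without the block.

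Of 20 listed Myc-activated genes with a RefSeq promoter entry, 6 (Ldha, Cdk4, Hspd1, Apex1, Nme1 and Eif4e) had CACGTG in a window, against 7.15% of all windows; some genes have several windows.

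Genes that Myc is known to repress were mixed. Of 4 tested in the 129 tables, in the Cast tables and with the alleles summed, 2 were lower and 1 higher each time. The 2 lower genes were the same in each. Of all tested genes, 27.0%, 31.5% and 34.4% were lower and 28.2%, 30.7% and 34.2% higher. Gadd45a, a stress-response gene, went from 30.7 ± 7.70 to 4.51 ± 1.40 CPM (SD, n = 3, alleles summed; log2 fold change -2.73, SE 0.29, edgeR adjusted p = 2.5e-05). The cell-cycle inhibitor Cdkn1b went from 107 ± 15.5 to 36.1 ± 8.0 CPM (-1.54, SE 0.18, adjusted p = 6.2e-05). Cdkn1a, another cell-cycle inhibitor, rose in the Cast tables (1.96, edgeR adjusted p = 0.0179) and stood at 1.58 in the 129 tables (adjusted p = 0.0932). Its naive Cast levels were low (1.49, 0.37 and 4.06 CPM), so its place in that test rests on its stimulated libraries. Ndrg1 rose in the 129 tables (1.63, edgeR adjusted p = 0.000509) and stood at -1.24 in the Cast tables (adjusted p = 0.136).

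**Figure D5:**
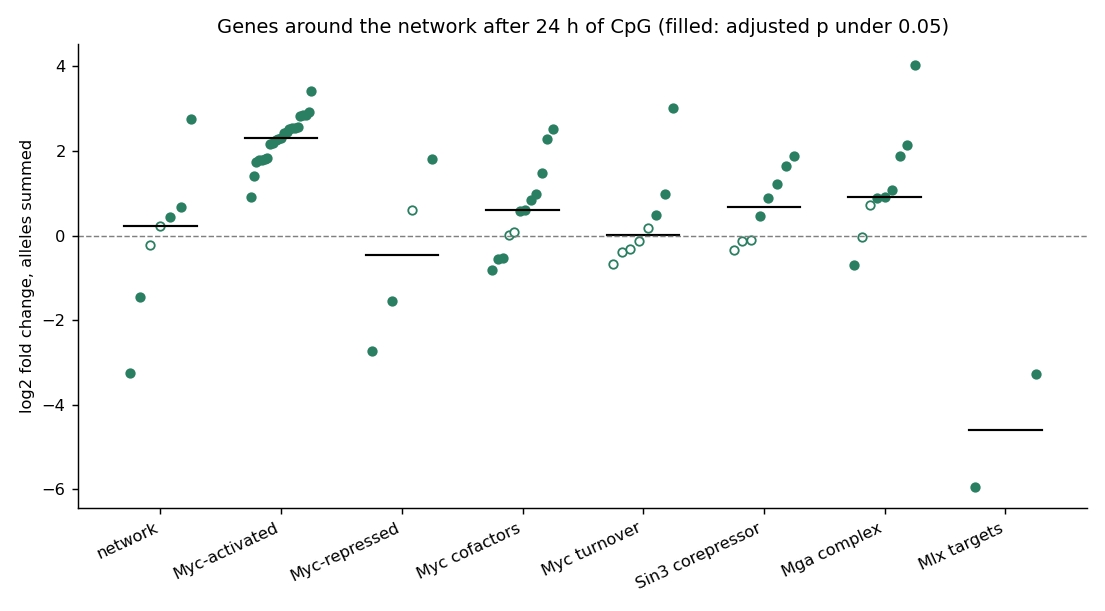
Log2 fold change with the alleles summed of every tested gene in 8 lists around the network; filled points passed an edgeR adjusted p of 0.05, black lines are list medians and the dashed line is the median of all tested genes (-0.01). The Myc-activated genes all lie above 0, both Mlx targets below -3, and the other lists lie on both sides of 0.

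Cofactors of Myc were split. With the alleles summed, 7 of 12 tested were higher, 3 lower and 2 not called, beside 34.2% higher and 34.4% lower of all tested genes, with a median log2 fold change of 0.60. The largest rises were those of Ruvbl2 (2.51, SE 0.12, edgeR adjusted p = 2.71e-07), Ruvbl1 (2.29) and Actl6a (1.48), which sit together in chromatin remodelling complexes. Trrap, a large scaffold protein (-0.54, edgeR adjusted p = 0.00405), and Ep400 (-0.55, adjusted p = 0.000636) were lower. Ep400 was not called in the Cast tables (-0.39, edgeR adjusted p = 0.0747). The 129 tables called 6 of 11 cofactors higher and 2 lower and the Cast set called 5 of 13 higher and 2 lower.

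Genes that act on the stability of Myc protein were called at a share near that of all tested genes in the upward direction. With the alleles summed, 3 of 8 tested were higher (34.2% of all tested genes) and none lower (34.4%), with a median of 0.03, and the 129 and Cast tables called 3 and 2 higher and 1 lower each. Aurka, a mitotic kinase, went from 2.67 ± 1.41 to 21.2 ± 7.36 CPM (SD, n = 3), a log2 change of 3.03 (SE 0.41, adjusted p = 0.000152 by edgeR). Its naive levels were low (2.18, 1.58 and 4.27 CPM), so its place in the test rests on its stimulated libraries. Fbxw7, the ligase subunit that marks Myc for degradation, stood at -0.14 (SE 0.15, adjusted p = 0.411 by edgeR).

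Mxd proteins and Mnt act through the Sin3 complex. With the alleles summed, 5 of 8 tested genes of that complex were higher (34.2% of all tested genes) and none lower (34.4%), with a median log2 fold change of 0.67; 3 of 8 were higher in the 129 tables, and 4 higher and 1 lower in the Cast tables. Rbbp7, a histone-binding subunit, rose by 1.89 (SE 0.27, adjusted p = 0.000164 by edgeR) and the deacetylase Hdac2 by 1.22 (SE 0.12, adjusted p = 1.65e-05). Sin3a and Sin3b, the scaffolds, were not called with the alleles summed (-0.09 and -0.33, adjusted p = 0.613 and 0.112).

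Of 9 tested genes of the Polycomb complex that holds Mga, 6 were higher in the 129 tables, in the Cast tables and with the alleles summed (28.2%, 30.7% and 34.2% of all tested genes), while Mga itself did not pass. Ring1 was lower in the 129 tables and with the alleles summed, and the summed median was 0.92. Tfdp1, the dimer partner of E2F proteins, went from 51.5, 39.2 and 38.6 CPM in naive to 761, 606 and 711 CPM in stimulated samples (log2 fold change 4.03, SE 0.16, edgeR adjusted p = 1.18e-07). No stimulated sample came near any naive one. E2f6, the repressive E2F of this complex, rose by 2.14 (SE 0.24, adjusted p = 4.11e-05 by edgeR) and Cbx3, a chromodomain protein, by 1.88 (SE 0.11, adjusted p = 7.93e-07).

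The genes whose pattern over the 6 samples was nearest to that of Myc were sought by Euclidean distance of centred log2(CPM + 1), alleles summed, among 10342 genes. They were Noa1 (distance 0.207), 9430015G10Rik (0.246), Tuft1 (0.254), Lzts3 (0.262) and Slc25a20 (0.276). Their levels ranged over the samples from 34.7 to 66.3 CPM for Noa1, 127 to 204 for 9430015G10Rik, 1.97 to 3.54 for Tuft1, 1.77 to 3.37 for Lzts3 and 14.6 to 24.6 for Slc25a20. The members were farther: Max ranked 1269, Mlx 1361, Mga 3242, Mxd1 8114, Mxd3 8813 and Mxd4 9879.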

How the data were processed

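The authors deposited whole-number read counts per gene, with 1 table per strain annotation (129 and Cast) and sample, from stranded total RNA libraries per the labels' protocols. The submitters' processing notes name STAR, featureCounts, Subread 2.0.0 and mm10 with no role; the tables carry strain gene identifiers and end in rows of unassigned reads, which were left out. How reads were given to a strain is not given in the sources used here. The 10 members and the gene lists were chosen with earlier results of these data known.

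Counts were tested with edgeR 4.0.16 (R 4.3.3; filterByExpr, TMM, robust quasi-likelihood F test, Benjamini-Hochberg at 0.05 over all genes tested), in each strain's tables, with the alleles summed over 28374 genes matched by name and chromosome, and for the Cast to 129 ratio with a term per sample. DESeq2 1.42.0 was an alternative. The test was also run on simulated counts of independent samples, with changes far larger than those of Myc, Max and Mlx. That check does not bear on the calls of these genes. CPM are per 1000000 gene reads. The rule for named genes took all members, Mycl, Mlxip and Mlxipl, up to 3 of the largest changes per list called on both alleles and summed whose mean reached 30 reads, and the 5 genes nearest to Myc. Apex1, Arrdc4, Cdkn1a, Ndrg1, Trrap, Ep400, Fbxw7, Sin3a, Sin3b, Ring1, Ganc and Rtf1 fall outside it and were named after their values were seen. A gene that the rule selects is not reported here.

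Same-numbered samples deviated together from their group means (Pearson's r 0.156 to 0.195 for summed levels across 7449 genes and 0.672 to 0.758 for the autosomal allele ratio across 7264 genes, all other pairs below 0), so the numbers in the titles were taken to pair the samples. Fits with and without this block, other scalings and filters, and each left-out sample were compared.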

Additional observations from a re-analysis of the deposited data

How the results depend on the processing

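The members called in the 129 tables were 2 to 4 with 1 sample left out, 5 with the replicate block and 3 with upper quartile scaling, which moved the median of all tested genes by -0.15, -0.13 and -0.17 (129, Cast, summed). In the Cast tables and summed, every setting gave 6 or 7 and 5 or 6. For the allele ratio the replicate block gave 0 members for the change, 1 in naive and 3 in stimulated cells. The naive and stimulated counts with the block leave the spread between replicate numbers out of the error. In stimulated cells 0 were called with own library sizes or without both samples numbered 1 (chosen after seeing the data), and 0 to 1 with 1 sample left out. Myc over antagonists rose by 0.57 to 1.37 (129) and 1.33 to 1.92 (Cast) with 1 sample left out; the block gave exact sign-flip p = 0.25 for both, the smallest possible. Values that were not called turned sign with 1 sample left out: stimulation of Mga, Cast (-0.49 to 0.12) and Myc, summed (-0.013 to 0.43); ratio change of Mxd1 (-0.16 to 0.60), Mlx (-0.00021 to 0.23) and Mga (-0.45 to 0.85); ratio of Myc (-0.29 to 0.055) and Mga (-0.17 to 1.10) in naive and of Mxd3 (-0.45 to 0.085) and Mlx (-0.091 to 0.14) in stimulated cells. Without both samples numbered 1 the naive ratio was 0.054 for Myc and -0.17 for Mga, and with own library sizes the ratio was -0.035 for Max (naive), -0.011 for Mxd4 and -0.040 for Mlx (stimulated). For single members, 291 of 308 values of stimulation and 158 of 189 of the allele ratio kept direction and call. Depth limits Mxi1, Mxd3 in naive cells and Mycn.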
